A study of Homo sapiens with 5 samples.

Results

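The immediate early transcription factors FOS, JUN and EGR1 and their close relatives were examined in RH4 cells after an siRNA against the circular RNA circVAMP3. The genes were chosen by name as the FOS family (FOS, FOSB, FOSL1, FOSL2), the JUN family (JUN, JUNB, JUND) and the immediate early genes EGR1, IER2 and KLF6. All 10 had a value in the deposited gene table, which lists 13822 genes. RH4 is an established human cell line from alveolar rhabdomyosarcoma (ARMS), a childhood tumour with features of early skeletal muscle. Cells grown with 10% fetal bovine serum were transfected with 30 nM of a control siRNA (si-SCR, 3 libraries) or of an siRNA against the back-splicing junction of circVAMP3 (si-circVAMP3, 2 libraries). Both groups received the reagent Dharmafect-1 and had fresh medium from 24 h on, and RNA was taken when that medium was itself 24 h old. Poly-A RNA was sequenced with a stranded mRNA kit, and each gene had 1 FPKM value per library (fragments scaled to the reads mapped in the library and to a gene length, here close to that of all annotated exons of the gene joined). The study's methods call the libraries of each group biological replicates and the labels number them, but neither says how the replicates were separated, so p-values measure the spread between these libraries.

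FOS and JUN proteins pair through leucine zippers to form the AP-1 transcription factor, in which JUN proteins can also pair with one another while FOS needs a partner such as JUN. EGR1 is a zinc finger factor, and its gene, like FOS, is switched on within minutes when growth factor signals reach the serum response factor SRF, without new protein synthesis. The mRNAs of many immediate early genes are short-lived, and a burst after fresh serum is usually over within hours. AP-1 and EGR1 act on genes of proliferation, invasion and differentiation.

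The sequence of the siRNA is shown because it defines the treated group and is searched for in transcripts below. The sense strand, as listed by the study, starts with the last 8 bases of exon 4 of VAMP3 in lower case, goes on with the first 11 bases of exon 3 in capitals, and closes with an overhang of lower-case u:
si-circVAMP3: caucaucgGUGGUGGACAUuu
The joined exons lie at chr1:7777160-7778169 (GRCh38, plus strand) and give a circle of 211 bases. The linear VAMP3 transcript held no match to the 19 bases before the overhang. The complement of these 19 bases, the strand that can guide Argonaute, is shown with bases 2 to 8, the seed, in capitals:
antisense strand: aUGUCCACcaccgaugaug
A poly-A library summed per gene does not measure circVAMP3, so the knockdown itself cannot be checked here. The linear host gene VAMP3, which encodes a vesicle fusion protein, stood at 36.4, 35.4 and 37.4 FPKM in si-SCR and at 29.4 and 30.2 FPKM in si-circVAMP3. Both si-circVAMP3 libraries were below all 3 si-SCR libraries. The log2 fold change was -0.29 (SE 0.06; limma, Benjamini-Hochberg adjusted p = 0.0217).

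RH4 identity was checked with 10 myogenic and ARMS markers, of which 9 were tested. Desmin (DES), the intermediate filament of muscle, had 292, 291 and 249 FPKM in si-SCR and 266 and 248 FPKM in si-circVAMP3. MYOD1, which commits cells to muscle, reached at least 84.3 FPKM in each library. The 9 markers summed to 1010, 994 and 847 FPKM in si-SCR and to 813 and 831 FPKM in si-circVAMP3. Myogenin (MYOG), which drives the onset of muscle differentiation, was the 1 marker called, lower in si-circVAMP3, from 175, 179 and 149 FPKM to 101 and 96.6 FPKM, with no overlap (log2 fold change -0.76, SE 0.10; limma, Benjamini-Hochberg adjusted p = 0.00859). At an unadjusted p under 0.05, and with voom after adjustment, 2 of the 9 were lower and 0 higher. Of all genes tested, 40.2% had an unadjusted p under 0.05 (19.0% higher and 21.2% lower) and 32.2% passed in voom, a fit to whole reads. MEF2C, a muscle transcription factor, was close to the threshold in limma (log2 fold change -0.35, Benjamini-Hochberg adjusted p = 0.0592). The part of these markers in the changes of the immediate early genes was not tested. Of 10 markers of blood, epithelial, liver, glial, endothelial and fibroblast cells, 3 were listed in the table, and they summed to 34.0, 31.4 and 31.7 FPKM in si-SCR and 29.8 and 27.4 FPKM in si-circVAMP3. COL3A1, a fibrillar collagen, made nearly all of that sum with 27.1 to 33.6 FPKM, while COL1A1 was between 0.127 and 0.233 FPKM. The other 7, PTPRC, CD3E, EPCAM, KRT5, KRT14, ALB and GFAP, were not listed in it.

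Of the 10 immediate early genes, 9 passed a filter of a mean of 0.3 FPKM over the 5 libraries and FOSB did not. FOSL1 was higher in si-circVAMP3 libraries, EGR1 and KLF6 were lower, and these 3 of 9 genes passed the test (limma on log2 of FPKM + 0.1, Benjamini-Hochberg adjusted p under 0.05 over 12943 genes). Across all genes tested 3146 passed, which is 24.3%: 1327 were higher (10.3%) and 1819 lower (14.1%). With 1 of 9 genes higher and 2 of 9 lower, the share called among the immediate early genes was near that of the whole table. When the trend with transcript GC content was removed in each library, an analysis chosen after seeing the data, 2160 of 4130 calls were higher. In 8 of the 10 genes the 2 groups of libraries did not overlap, 6 with higher and 2 with lower values in si-circVAMP3, and the same held for 57.5% of the genes tested. The median log2 fold change was 0.31 for the 9 genes and 0.01 for all genes tested.

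**Figure D1:**
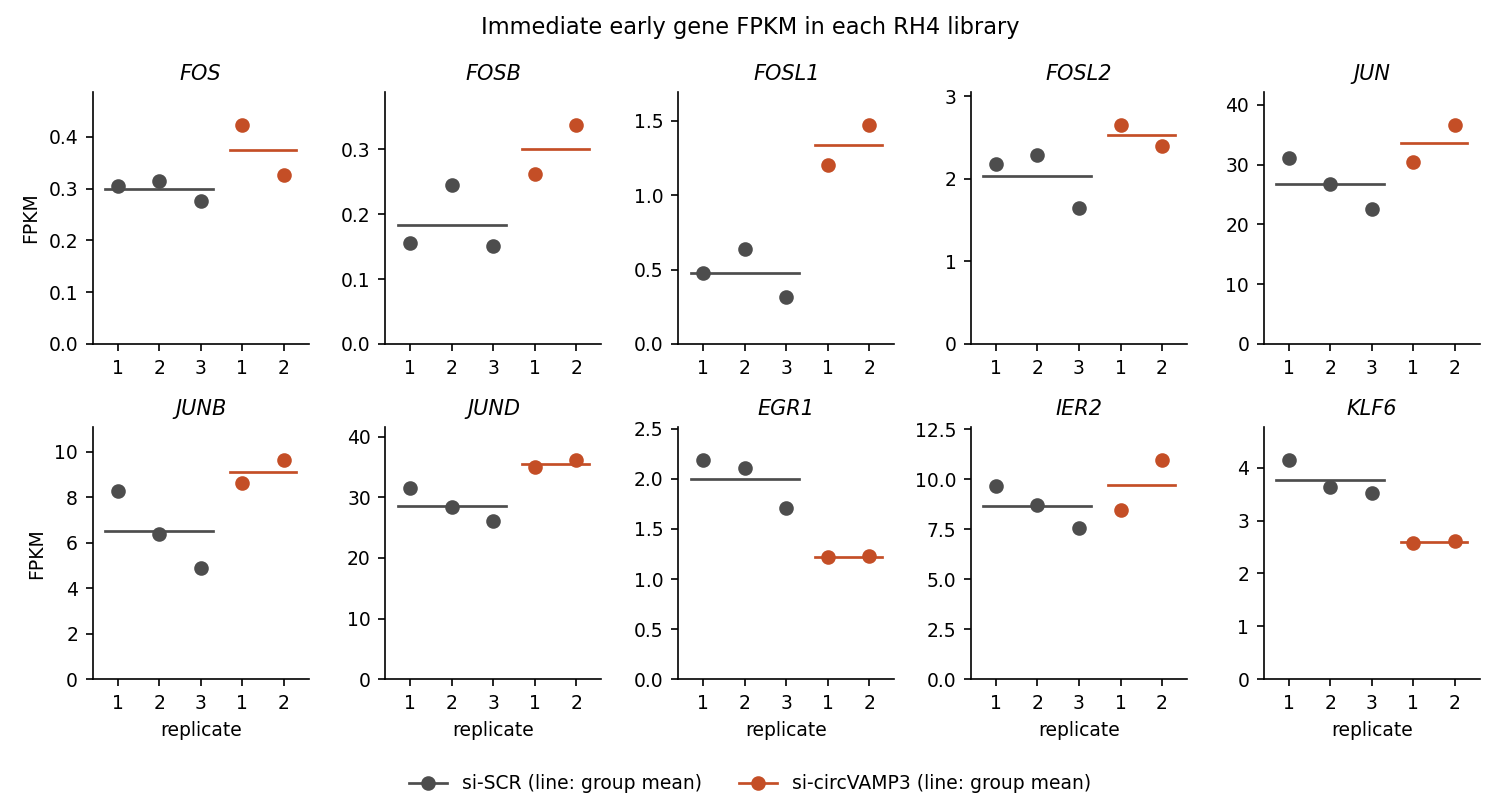
FPKM of the 10 immediate early genes in each library, with the replicate number on the horizontal axis, si-SCR in grey, si-circVAMP3 in orange and a line at each group mean; every vertical axis starts at 0. FOSL1 lay at 0.319 to 0.636 FPKM in si-SCR and at 1.20 and 1.47 FPKM in si-circVAMP3, EGR1 and KLF6 were lower in both si-circVAMP3 libraries, and si-SCR replicate 3 was the lowest si-SCR library for each of the 10 genes.

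The 10 genes spanned a wide range of levels. JUND (mean over the 5 libraries 31.4 FPKM) and JUN (29.5 FPKM) led, followed by IER2 (9.07 FPKM), JUNB (7.57 FPKM), KLF6 (3.30 FPKM), FOSL2 (2.23 FPKM), EGR1 (1.69 FPKM), FOSL1 (0.821 FPKM), FOS (0.329 FPKM) and FOSB (0.230 FPKM). The median gene of the table had 4.78 FPKM, so FOS and FOSB were among the least abundant genes listed, above 7.20% and 4.40% of the table. The length behind the deposited values was up to 1.54 times that of the canonical transcript (3233 against 2104 bases for FOS, 3124 against 2110 for IER2), which lowers such genes against the others. With the canonical transcript length, an alternative chosen after seeing the data, the order of the 10 was the same, with mean levels of 0.506 FPKM for FOS, 0.344 FPKM for FOSB, 4.47 FPKM for KLF6 and 13.4 FPKM for IER2. Between neighbours in the order of deposited values, the ranges over the 5 libraries were separate only for JUN and IER2 and for JUNB and KLF6. All other neighbours overlapped, JUND and JUN among them. The order of the group means was the same in si-SCR, and in si-circVAMP3 FOSL1 (1.34 FPKM) and EGR1 (1.22 FPKM) changed places.

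FOSL1, also known as FRA-1, is a FOS family member without the transactivation domain of FOS, and its gene is itself an AP-1 target in many cells. The gene lies at chr11:65892049-65900573 (minus strand, 4 exons). It measured 0.477, 0.636 and 0.319 FPKM in si-SCR and 1.20 and 1.47 FPKM in si-circVAMP3. Both si-circVAMP3 libraries were above all 3 si-SCR libraries, and the gap between the groups was wider than the spread within either. Mean FPKM was 0.477 ± 0.159 (SD, n = 3) in si-SCR and 1.34 ± 0.192 (SD, n = 2) in si-circVAMP3, a ratio of 2.80. The log2 fold change was 1.35 (SE 0.25, 95% interval 0.73 to 1.97; limma, Benjamini-Hochberg adjusted p = 0.0197). At this low level the size depends on the pseudocount: it was 0.66 with a pseudocount of 1, and 1.54 in voom, called in both. These levels rest on few reads. The whole reads recovered from the FPKM values were 24, 30 and 15 in si-SCR and 42 and 80 in si-circVAMP3, from libraries with 26064850, 24694435 and 24583875 reads in listed genes for si-SCR and 18358442 and 28401864 for si-circVAMP3. Exact 95% Poisson intervals, which cover counting error only and were set on the FPKM scale, ran from 0.429 to 0.908 FPKM for si-SCR replicate 2 and from 0.866 to 1.62 FPKM for si-circVAMP3 replicate 1, so these 2 met at their edges. The FOSL1 call was lost without si-SCR replicate 1 (log2 fold change 1.37, limma, Benjamini-Hochberg adjusted p = 0.0522) and without si-circVAMP3 replicate 1 (1.48, adjusted p = 0.0826) or replicate 2 (1.21, adjusted p = 0.109), and over all alternatives the adjusted p lay between 0.00371 and 0.109.

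FOS itself (chr14:75278826-75282230, plus strand, 4 exons) was close to the lower limit of the table. Its values were 0.306, 0.314 and 0.277 FPKM in si-SCR and 0.423 and 0.327 FPKM in si-circVAMP3. The groups did not overlap, but si-circVAMP3 replicate 2 lay just above the highest si-SCR library. The log2 fold change of 0.25 (SE 0.10, 95% interval -0.02 to 0.51) did not pass (limma, Benjamini-Hochberg adjusted p = 0.143). FOS had 26, 25 and 22 reads in si-SCR and 25 and 30 in si-circVAMP3, and on the FPKM scale, which allows for depth, the exact 95% Poisson interval of si-SCR replicate 2, 0.203 to 0.463 FPKM, held the values of the other 4 libraries. Only the interval of si-SCR replicate 3, 0.173 to 0.419 FPKM, missed a value, that of si-circVAMP3 replicate 1. FOSB (chr19:45467995-45475179, plus strand, 4 exons), which is made in full-length and shorter forms, had 0.155, 0.245 and 0.152 FPKM in si-SCR and 0.262 and 0.338 FPKM in si-circVAMP3. The lower of the si-circVAMP3 values was just above the highest si-SCR value. Without the filter its log2 fold change was 0.50 (limma, Benjamini-Hochberg adjusted p = 0.0939) and did not pass, from 21 to 54 reads per library. FOSL2 (FRA-2; chr2:28392448-28417317, plus strand, 4 exons), the most abundant FOS family gene here, had 2.18, 2.29 and 1.65 FPKM in si-SCR and 2.65 and 2.40 FPKM in si-circVAMP3. The groups were separate by a small margin, and the difference did not pass (log2 fold change 0.31, SE 0.15; limma, Benjamini-Hochberg adjusted p = 0.188).

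Values set against length can be summed over a family within a library, with the limit that the lengths are those of all exons joined. The FOS family summed to 3.12, 3.48 and 2.39 FPKM in si-SCR and to 4.54 FPKM in each si-circVAMP3 library. FOSL1 made 15.3%, 18.3% and 13.3% of that sum in si-SCR and 26.5% and 32.4% in si-circVAMP3. FOSL2 made 69.9%, 65.7% and 68.8% in si-SCR and 58.4% and 52.9% in si-circVAMP3. The shares of FOSL1 and of FOSL2 did not overlap between groups, and those of FOS (7.21% to 11.6%) and FOSB (4.98% to 7.44%) did. With canonical transcript lengths, where FOS made 9.55% to 15.2% of the sum and FOSB 6.45% to 9.58%, this was also so: FOSL1 made 12.8% to 17.7% in si-SCR and 25.7% and 31.5% in si-circVAMP3, and FOSL2 61.3% to 65.6% against 54.5% and 49.4%. In the JUN family, which summed to 70.8, 61.5 and 53.5 FPKM in si-SCR and to 74.1 and 82.4 FPKM in si-circVAMP3, the composition was much the same in all libraries: JUN made 41.1% to 44.5%, JUND 43.8% to 48.6% and JUNB 9.18% to 11.7%. JUN and JUND each exceeded the summed FPKM of the FOS family in every library. These shares are a description and were not tested.

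**Figure D2:**
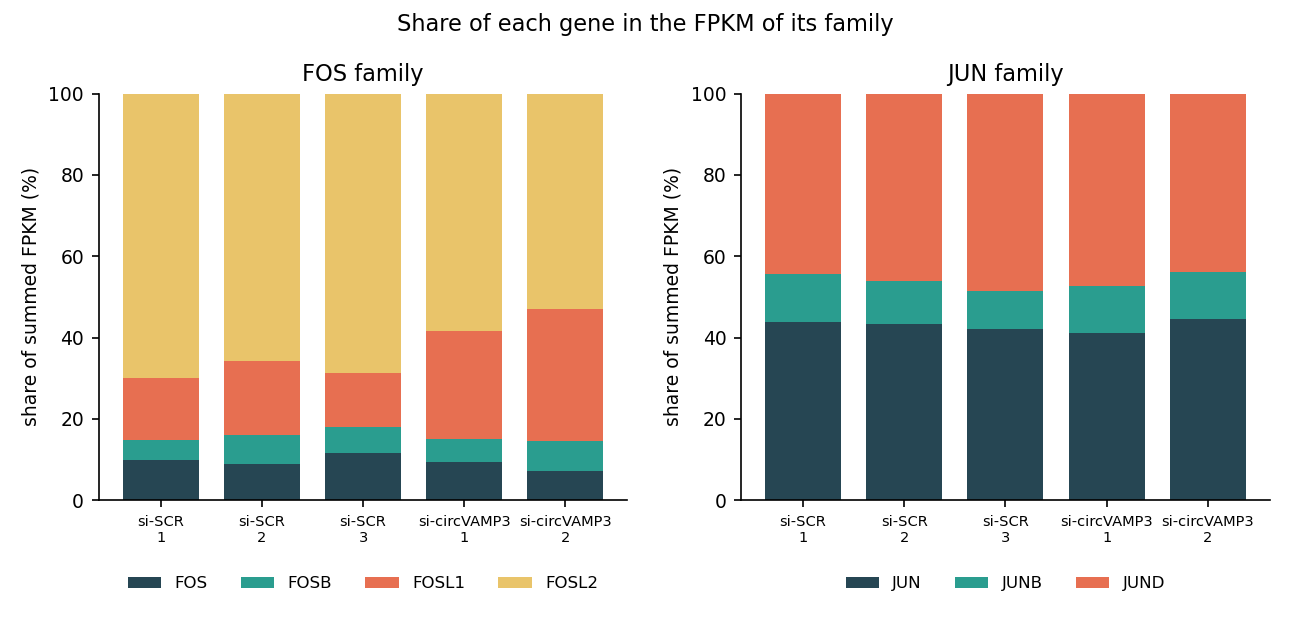
Stacked bars of the share (%) of each gene in the summed FPKM of the FOS family (left) and of the JUN family (right), 1 bar per library. The FOSL1 share was 13.3% to 18.3% in the 3 si-SCR libraries and 26.5% and 32.4% in the 2 si-circVAMP3 libraries, while JUN family shares stayed within a few percent.

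The canonical transcripts of JUN, JUNB and JUND each have 1 exon. JUN (chr1:58776845-58784048, minus strand), the AP-1 subunit that is activated by the kinase JNK, had 31.1, 26.7 and 22.6 FPKM in si-SCR and 30.5 and 36.6 FPKM in si-circVAMP3. The groups overlapped, since si-SCR replicate 1 was above si-circVAMP3 replicate 1. The log2 fold change of 0.33 (SE 0.16, 95% interval -0.06 to 0.73) did not pass (limma, Benjamini-Hochberg adjusted p = 0.180). JUNB (chr19:12791486-12793315, plus strand), a weaker activator that can oppose JUN, had 8.28, 6.39 and 4.91 FPKM in si-SCR and 8.64 and 9.64 FPKM in si-circVAMP3. Both si-circVAMP3 values were the highest, but the 3 si-SCR values were spread so widely that the log2 fold change of 0.51 (SE 0.22) did not pass (limma, Benjamini-Hochberg adjusted p = 0.147). JUND (chr19:18279694-18281622, minus strand), the JUN protein that is made at a steady level in many resting cells, had 31.5, 28.4 and 26.0 FPKM in si-SCR and 35.0 and 36.1 FPKM in si-circVAMP3. Its groups were separate, and its log2 fold change of 0.32 (SE 0.09, 95% interval 0.08 to 0.55) came close to the threshold without passing (limma, Benjamini-Hochberg adjusted p = 0.0611). JUND had 1251 to 2006 reads per library and JUNB had 224 to 508, so both were far better covered than the FOS family genes other than FOSL2. With voom on the whole reads, chosen after seeing the data, 5 of the 9 genes passed where 32.2% of all genes tested did: JUND (0.32, Benjamini-Hochberg adjusted p = 0.0134) and JUNB (0.52, adjusted p = 0.0482) joined FOSL1, EGR1 and KLF6. JUND also passed under 5 other alternatives in limma: a pseudocount of 1 (Benjamini-Hochberg adjusted p = 0.0360), a filter at a mean of 1 FPKM (0.0469), a mean-dependent variance trend (0.0266), centring on library medians (0.0492) and without si-SCR replicate 1 (0.0447). Over all alternatives the adjusted p of JUND ranged from 0.0134 to 0.229 and that of JUNB from 0.0437 to 0.407.

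EGR1 (chr5:138465479-138469303, plus strand, 2 exons) measured 2.19, 2.11 and 1.71 FPKM in si-SCR and 1.22 and 1.23 FPKM in si-circVAMP3. Both si-circVAMP3 libraries were below all 3 si-SCR libraries and nearly equal to each other. Mean FPKM was 2.00 ± 0.254 (SD, n = 3) in si-SCR and 1.22 ± 0.00530 (SD, n = 2) in si-circVAMP3, a ratio of 0.612. The log2 fold change was -0.66 (SE 0.11, 95% interval -0.94 to -0.37; limma, Benjamini-Hochberg adjusted p = 0.0167). With a pseudocount of 1 it was -0.43, still called. EGR1 had 183, 165 and 134 reads in si-SCR and 71 and 111 in si-circVAMP3. The call was lost without si-SCR replicate 2 (log2 fold change -0.62, limma, Benjamini-Hochberg adjusted p = 0.0613), without si-circVAMP3 replicate 1 (-0.65, adjusted p = 0.0931) and without si-circVAMP3 replicate 2 (-0.66, adjusted p = 0.0905). The adjusted p lay between 0.00966 and 0.0931 over all alternatives.

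SRF, the factor that binds CArG boxes in immediate early promoters, was also lower, and the promoters of EGR1 and of SRF are shown because both genes fell and both carry CArG boxes close to the start. SRF had 29.8, 30.2 and 29.0 FPKM in si-SCR and 18.9 and 17.5 FPKM in si-circVAMP3. Every si-SCR value was above both si-circVAMP3 values, and the log2 fold change was -0.70 (SE 0.06; limma, Benjamini-Hochberg adjusted p = 0.00427). The 250 bases before each start (RefSeq, GRCh38.p14, both genes on the plus strand; EGR1 chr5:138465229-138465478, SRF chr6:43171019-43171268) are given with CArG boxes in capitals:
EGR1: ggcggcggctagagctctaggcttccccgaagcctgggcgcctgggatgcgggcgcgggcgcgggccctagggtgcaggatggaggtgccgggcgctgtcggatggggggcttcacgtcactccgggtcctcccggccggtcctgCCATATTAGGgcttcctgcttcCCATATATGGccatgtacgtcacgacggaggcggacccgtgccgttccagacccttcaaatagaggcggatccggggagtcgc
SRF: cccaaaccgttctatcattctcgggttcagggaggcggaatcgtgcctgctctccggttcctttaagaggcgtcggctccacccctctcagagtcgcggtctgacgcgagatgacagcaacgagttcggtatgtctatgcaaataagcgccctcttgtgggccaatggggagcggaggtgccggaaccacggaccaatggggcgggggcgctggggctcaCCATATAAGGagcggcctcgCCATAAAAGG
The EGR1 boxes begin 105 and 83 bases before the start and the SRF boxes 30 and 10 bases before it. Promoters of 9 of the 10 immediate early genes were matched by symbol; FOSL1 was not matched. On both strands of these 250 bases, the CArG box was found in EGR1 alone among the 9 and in 1.16% of all 35116 promoters. Boxes farther from the start were not searched for, so a gene without a match here can hold one upstream. The EGR motif GCGNGGGCG was found in EGR1 and KLF6 and in 8.41% of all promoters, and the CRE motif TGACGTCA in JUND and in 1.65%. The AP-1 motif TGANTCA was in none of the 9 windows and in 6.57% of all promoters. A match describes letters and not binding. Whether the lower SRF had a part in the lower EGR1 was not tested.

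KLF6 (chr10:3775996-3785281, minus strand, 4 exons), a zinc finger factor of the Krüppel-like family, measured 4.14, 3.64 and 3.53 FPKM in si-SCR and 2.58 and 2.61 FPKM in si-circVAMP3. All 3 si-SCR libraries were above both si-circVAMP3 libraries. Mean FPKM was 3.77 ± 0.328 (SD, n = 3) in si-SCR and 2.59 ± 0.0229 (SD, n = 2) in si-circVAMP3, a ratio of 0.688. The log2 fold change was -0.52 (SE 0.08, 95% interval -0.73 to -0.31; limma, Benjamini-Hochberg adjusted p = 0.0145), from 678, 558 and 540 reads against 293 and 461. The call was lost without si-SCR replicate 2 (-0.54, limma, Benjamini-Hochberg adjusted p = 0.0515), without si-circVAMP3 replicate 1 (-0.51, adjusted p = 0.0878) and without si-circVAMP3 replicate 2 (-0.53, adjusted p = 0.0825), and over all alternatives the adjusted p lay between 0.00317 and 0.0878. A block for the replicate number also ended the KLF6 call (log2 fold change -0.56, limma, Benjamini-Hochberg adjusted p = 0.0555). IER2 (chr19:13150411-13154911, plus strand, 2 exons), a nuclear protein of the early growth factor response, had 9.67, 8.71 and 7.54 FPKM in si-SCR and 8.46 and 11.0 FPKM in si-circVAMP3. The groups overlapped, and the log2 fold change of 0.16 (SE 0.15) did not pass (limma, Benjamini-Hochberg adjusted p = 0.473). Without si-circVAMP3 replicate 2 the IER2 value changed sign, to -0.022, against 0.35 without replicate 1.

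**Figure D3:**
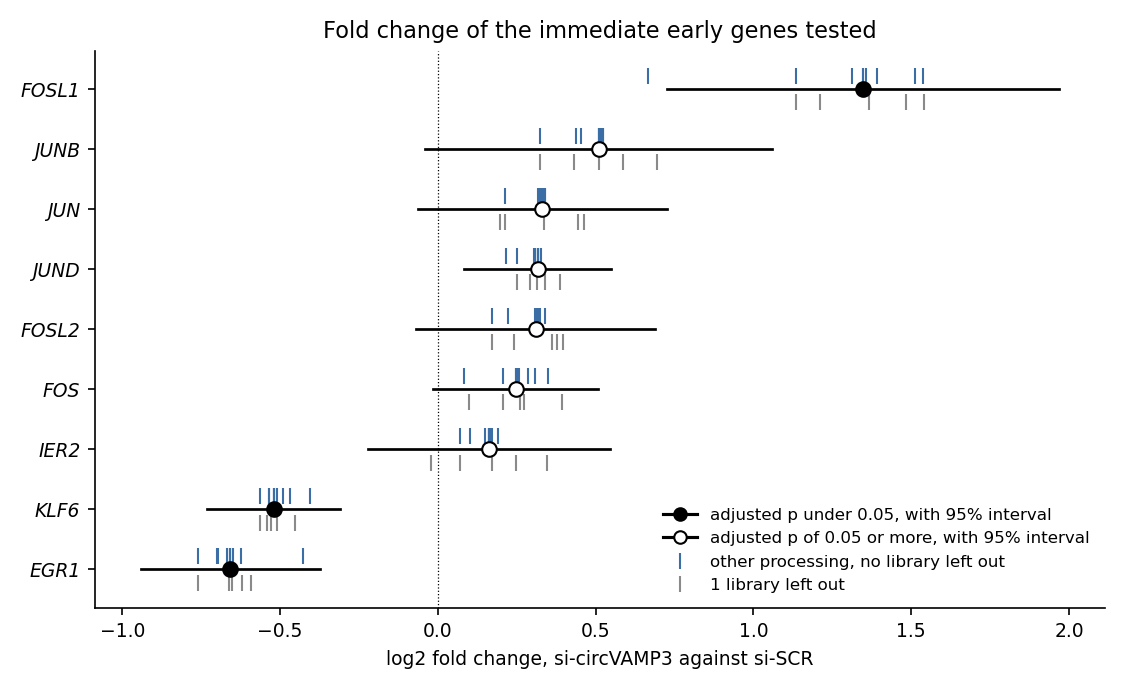
Log2 fold change of si-circVAMP3 against si-SCR for the 9 genes tested, with 95% intervals from limma on log2 of FPKM + 0.1; filled points passed an adjusted p under 0.05. Blue ticks are other processing choices, some on other scales (other pseudocounts, voom), and grey ticks leave out 1 library; FOSL1 stayed above 0 and EGR1 and KLF6 below 0 at every tick, and IER2 crossed 0.

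KLF6 was the 1 gene of the 10 whose 3′ untranslated region held the 7 bases that pair with the siRNA seed, GUGGACA. Of the genes called in the lists described below, the 10 immediate early genes included, the match was present in 5 of 12 called lower (KLF6, NAB1, SRF, MAP2K7 and CNOT1) in 1 of 10 called higher (MAFF) and in 7 of 75 not called. Over the 11380 genes tested that have an annotated 3′ untranslated region it was present in 421 of 1607 genes called lower (26.2%), 66 of 1275 called higher (5.18%) and 822 of 8498 not called (9.67%). The 19 bases that would face the whole antisense strand are shown for KLF6, for NAB1 and SRF as regulators linked to EGR1, and for MAFF, to make the extent of pairing visible, with the seed match in capitals (GRCh38; KLF6 chr10:3777277-3777295, minus strand; NAB1 chr2:190691343-190691361, SRF chr6:43181407-43181425 and MAFF chr22:38215505-38215523, plus strand):
KLF6: cauaccacggcGUGGACAg
NAB1: ccaucacaaauGUGGACAa
SRF: acccaggaauaGUGGACAu
MAFF: ucagggggacaGUGGACAg
Each site lies in the last exon. Of the 19 bases, 11 match the siRNA sense strand in KLF6, 9 in NAB1, 11 in SRF and 8 in MAFF. Over all tested genes with an annotated 3′ untranslated region, the median log2 fold change was 0.03 in the 10071 genes without a match, -0.12 in the 1160 genes with 1 match and -0.23 in the 149 genes with 2 or more. Genes called lower made 11.8%, 31.2% and 39.6% of these classes and genes called higher made 12.0%, 5.26% and 3.36%. The classes also differed in the median length of that region, 1228, 2778 and 4991 bases. EGR1 and FOSL1 had no match. Whether the siRNA acted on KLF6, NAB1 or SRF through these bases was not tested.

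**Figure D4:**
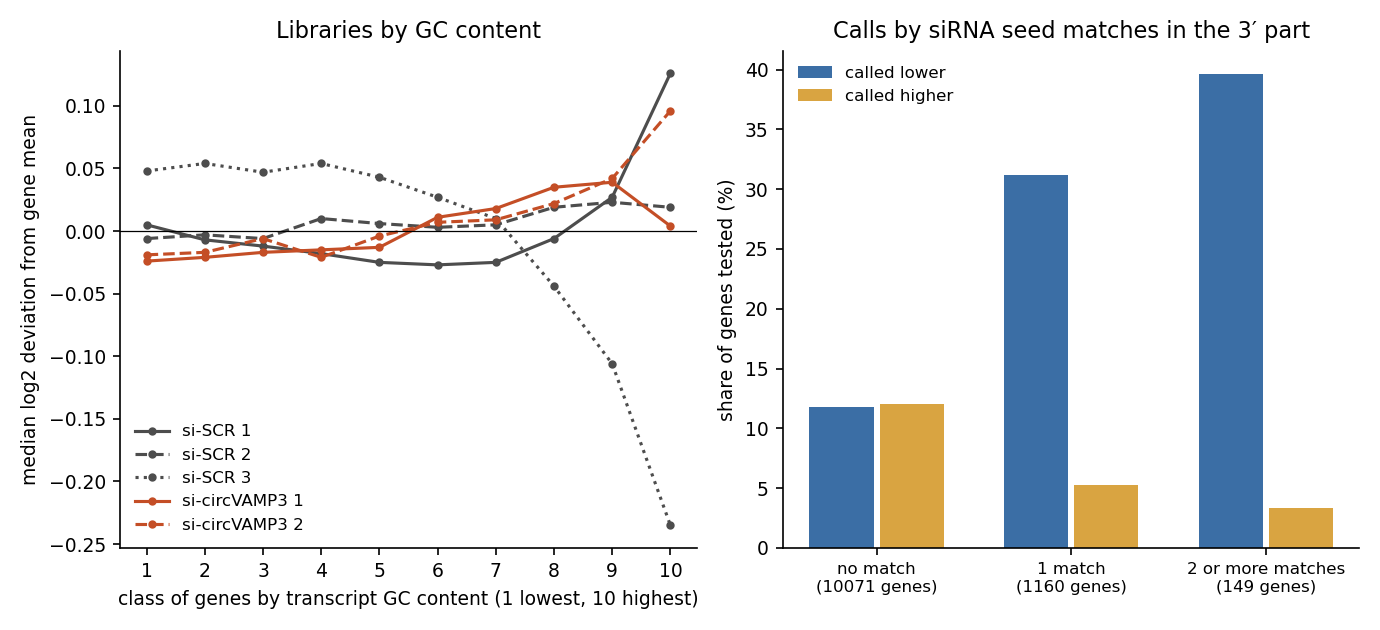
Left, median log2 deviation of each library from the gene mean in 10 classes of genes ordered by transcript GC content, where si-SCR replicate 3 was at -0.24 and si-SCR replicate 1 at 0.13 in class 10, the most GC-rich. Right, percentage of tested genes called lower or higher by the number of siRNA seed matches in the 3′ untranslated region, with 31.2% called lower among genes with 1 match and 11.8% among genes with none.

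A feature shared by most of the 10 genes was a high GC content. Transcript GC content was above the median of tested genes, 48.2%, in 9 of the 10, from 52.8% for FOS to 69.9% for JUND, and was 45.7% for KLF6. GC-rich transcripts varied between the si-SCR libraries: in the 1290 genes with the highest GC content, from 61.7% up, the median log2 deviation from the gene mean was 0.13, 0.02 and -0.24 in si-SCR replicates 1, 2 and 3, and 0.00 and 0.10 in si-circVAMP3. In all 10 genes si-SCR replicate 3 was the lowest si-SCR library. With the trend with GC content removed in each library, the log2 fold change was 1.31 for FOSL1, -0.67 for EGR1 and -0.47 for KLF6, all called, and 0.44 for JUNB, which then passed (limma, Benjamini-Hochberg adjusted p = 0.0437, within a range of 0.0437 to 0.407 over its alternatives). JUND went from 0.32 to 0.22, farther from the threshold (limma, Benjamini-Hochberg adjusted p = 0.215, within 0.0134 to 0.229 over its alternatives), and IER2 from 0.16 to 0.10.

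Partners and regulators of these factors were taken from named lists, set against the 24.3% of all genes tested that were called and their median of 0.01. Counts at an unadjusted p under 0.05 are to be read against 40.2% of all genes tested, and counts from voom against 32.2%. Groups did not overlap in 57.5% of all genes tested. Called genes were picked by their difference between the groups, so their lack of overlap adds no support. Among 8 tested bZIP partners, 2 were called higher and 1 lower (median log2 fold change 0.03), with the same counts in voom and 2 and 2 at an unadjusted p under 0.05. The small MAF protein MAFG had 10.2, 9.70 and 8.87 FPKM in si-SCR and 13.8 and 14.3 FPKM in si-circVAMP3 (log2 fold change 0.55), and MAFF rose by 0.74 from a mean of 0.622 to 1.10 FPKM. ATF3, a stress-induced partner of JUN, had 11.9, 12.9 and 11.9 FPKM in si-SCR and 8.85 and 9.87 FPKM in si-circVAMP3 (-0.38). None of these 3 overlapped between groups, with Benjamini-Hochberg adjusted p from limma of 0.0105 for MAFG, 0.0160 for MAFF and 0.0230 for ATF3. With a pseudocount of 1 the log2 fold change of MAFF was 0.38, still called. EGR2, EGR3 and EGR4 were sought and were not listed in the deposited table. NAB1, a corepressor that binds EGR1 protein, had 11.6, 11.4 and 11.7 FPKM in si-SCR and 6.08 and 6.15 FPKM in si-circVAMP3. Its groups were far apart (log2 fold change -0.91, SE 0.05; limma, Benjamini-Hochberg adjusted p = 0.00244). Its relative NAB2, itself an EGR1 target, had 5.76 to 5.86 FPKM in si-SCR and 5.64 and 5.13 FPKM in si-circVAMP3 and did not pass (-0.11, limma, Benjamini-Hochberg adjusted p = 0.247).

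Of 21 other immediate early genes tested, 3 were called higher and 2 lower (23.8%, median 0.13). At an unadjusted p under 0.05 limma had 7 higher and 2 lower, where 40.2% of all genes passed, and voom called 6 higher and 2 lower, where 32.2% did. IER3, an inhibitor of cell death, rose most among them, from 2.72, 3.17 and 2.52 FPKM in si-SCR to 8.39 and 10.2 FPKM in si-circVAMP3 (log2 fold change 1.69, SE 0.13; limma, Benjamini-Hochberg adjusted p = 0.00343). IER5L, a relative of IER2, had 0.775, 0.650 and 0.473 FPKM in si-SCR and 1.07 and 1.45 FPKM in si-circVAMP3 (0.90, limma, Benjamini-Hochberg adjusted p = 0.0349; 0.47 with a pseudocount of 1, still called). NR4A1, an orphan nuclear receptor, had 2.67, 2.84 and 2.51 FPKM in si-SCR and 1.92 and 2.16 FPKM in si-circVAMP3 (-0.37, limma, Benjamini-Hochberg adjusted p = 0.0299). The groups were separate for each of the 3. MAFF and ATF3, given above, are the other 2 called.

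In the SRF and CREB arm, which carries signals to the FOS and EGR1 promoters, 1 of 12 genes tested was called higher and 1, SRF, lower (median -0.15). At an unadjusted p under 0.05 limma had 4 higher and 5 lower, and voom called 3 higher and 2 lower. The CREB coactivator CRTC2 had 6.66, 6.48 and 6.91 FPKM in si-SCR and 10.2 and 9.47 FPKM in si-circVAMP3 (log2 fold change 0.55, limma, Benjamini-Hochberg adjusted p = 0.00729). Among 12 kinases that act on FOS and JUN proteins, directly or through another kinase, 2 were called lower and 0 higher (median -0.03). At an unadjusted p under 0.05 limma had 3 lower and 2 higher, as had voom after adjustment. The 2 called were MAP2K7 (8.26, 7.46 and 6.47 FPKM in si-SCR, 5.33 and 5.47 FPKM in si-circVAMP3) and MAP2K4 (6.46, 6.76 and 6.91 FPKM against 5.67 and 5.77 FPKM). Both act on JNK and not on JUN itself, and the JNK genes MAPK8, MAPK9 and MAPK10 did not pass in limma. Their log2 fold changes were -0.44 and -0.23 (limma, Benjamini-Hochberg adjusted p = 0.0410 and 0.0417), and neither overlapped between groups. MAP2K7 lost the call under 5 of 15 alternatives and MAP2K4 under 8. For MAP2K4 these included centring on library medians (limma, Benjamini-Hochberg adjusted p = 0.0583) and quantile normalization (0.0662).

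Among 9 tested genes known as AP-1 targets, 4 were called higher and 0 lower (44.4%, median 0.46), the same counts as at an unadjusted p under 0.05 and with voom. The stromelysin MMP3 had 17.1, 13.9 and 16.3 FPKM in si-SCR and 30.1 and 25.3 FPKM in si-circVAMP3 (log2 fold change 0.81), and urokinase, PLAU, had 16.0, 16.5 and 17.8 FPKM against 26.4 and 27.6 FPKM (0.68). The metalloprotease inhibitor TIMP1 had 33.7, 37.1 and 34.6 FPKM in si-SCR and 48.7 and 47.7 FPKM in si-circVAMP3 (0.46). Heme oxygenase, HMOX1, had 8.71, 9.12 and 7.36 FPKM in si-SCR and 14.8 and 12.7 FPKM in si-circVAMP3 (0.71). In all 4 genes both si-circVAMP3 values were above every si-SCR value, where groups did not overlap in 57.5% of all genes tested. The limma Benjamini-Hochberg adjusted p was 0.0127, 0.00560, 0.0109 and 0.0163 in the order given. The other 5, CCND1, MMP2, PLAUR, SPP1 and VIM, did not pass.

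Of 10 factors of rapid mRNA decay, which limit the life of immediate early mRNAs, 2 were called lower and 0 higher (median -0.04), against 4 and 0 at an unadjusted p under 0.05 in limma and with voom. The exonuclease XRN1 had 27.3, 28.1 and 30.5 FPKM in si-SCR and 24.1 and 23.4 FPKM in si-circVAMP3, and the deadenylase scaffold CNOT1 had 39.1, 41.0 and 43.7 FPKM against 35.3 and 32.4 FPKM. Both were separate between groups and small in size (log2 fold changes -0.27 and -0.28, limma, Benjamini-Hochberg adjusted p = 0.0447 and 0.0479). XRN1 lost the call under 8 of 15 alternatives and CNOT1 under 9. Without the filter the adjusted p from limma was 0.0507 for XRN1 and 0.0539 for CNOT1. After centring on library medians it was 0.0595 and 0.0599. Of 7 heat shock genes 0 passed in limma (median 0.06), 1 was lower at an unadjusted p under 0.05, and voom called 1 higher and 1 lower. Among them HSP90AA1 had 411, 412 and 431 FPKM in si-SCR and 450 and 459 FPKM in si-circVAMP3 and HSPA8 had 371, 372 and 379 FPKM against 344 and 318 FPKM. Of the 19 genes called in these lists beside the 10 immediate early genes, host gene and markers included, 12, 10 and 16 passed without si-SCR replicate 1, 2 or 3. Without si-circVAMP3 replicate 1 these were 4 (IER3, NAB1, PLAU and SRF), and without replicate 2 also 4 (CRTC2, IER3, NAB1 and SRF). All 19 kept their sign each time.

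**Figure D5:**
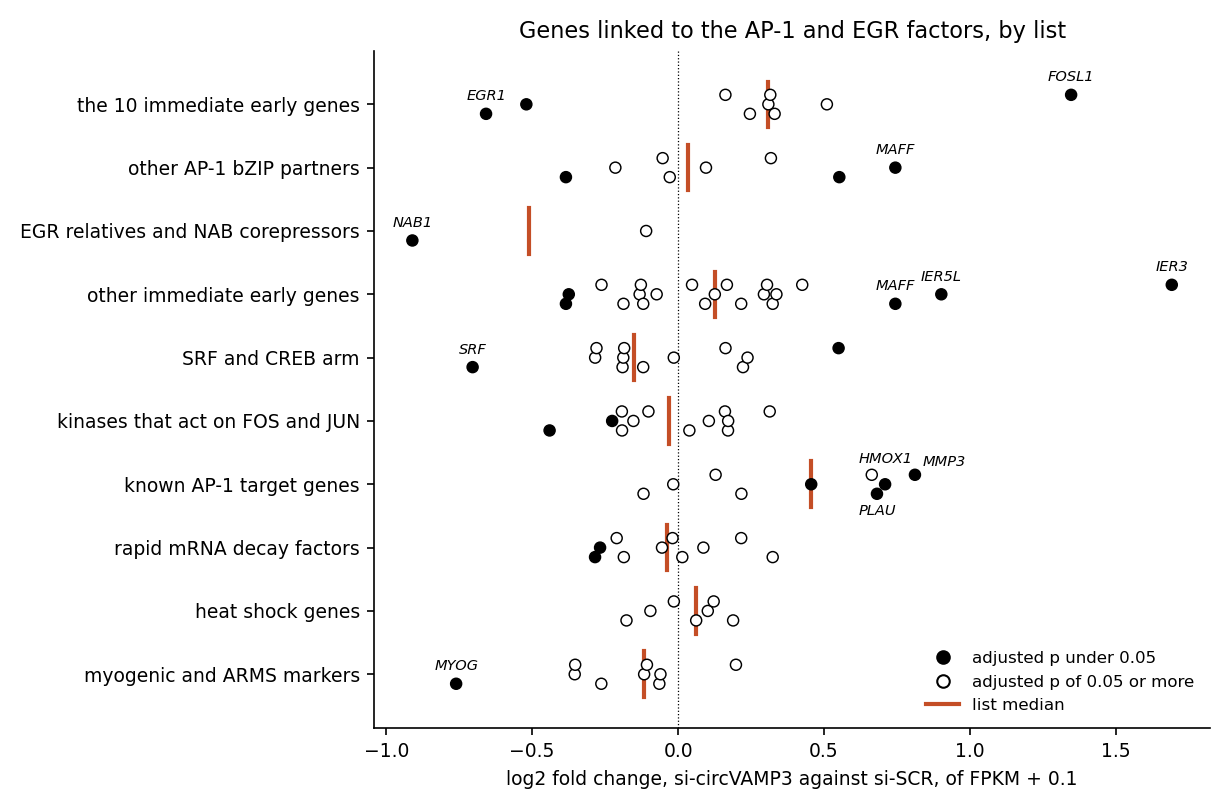
Log2 fold change (FPKM + 0.1) of si-circVAMP3 against si-SCR for each tested gene of 10 lists, with filled points for an adjusted p under 0.05 (limma) and an orange line at each list median. FOSL1 and IER3 were the highest points with 1.35 and 1.69, NAB1 the lowest with -0.91, and 4 of the 9 AP-1 targets were called, all higher.

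The genes most like KLF6 and EGR1, the 2 with the smallest p of the 10, were sought among 11093 other genes. Only genes with a mean of 1 FPKM or more were compared. The measure was the Euclidean distance between log2 deviations from the gene mean over the 5 libraries. Nearest to KLF6 were BRSK1 (distance 0.0351), ZNF316 (0.0593) and RAPGEF1 (0.0677). BRSK1 had 4.29, 3.79 and 3.59 FPKM in si-SCR and 2.62 and 2.65 FPKM in si-circVAMP3, close to KLF6 in level as well as in pattern. BRSK1 and ZNF316 also held 1 seed match each, and RAPGEF1 held none. Nearest to EGR1 were YIPF2 (0.0590), DOCK6 (0.0593) and TRAF7 (0.0647). TRAF7 had 30.0, 28.8 and 24.5 FPKM in si-SCR and 18.2 and 17.8 FPKM in si-circVAMP3, the same order of libraries as EGR1 within si-SCR at a higher level; it held 1 seed match, YIPF2 and DOCK6 none. With 5 libraries such distances describe the pattern only. In bulk libraries like these, fewer cells that express a gene and less RNA per cell cannot be told apart.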

How the data were processed

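Per the labels and the methods of the study, the authors trimmed reads with Trimmomatic, aligned them with STAR 2.5.2b to GRCh38, counted them per Ensembl gene with HTSeq on the reverse strand and computed the deposited FPKM values with edgeR, after removing genes with low counts. From these, log2 of FPKM + 0.1 was tested with limma 3.58.1 in R 4.3.3 for genes with a mean of 0.3 FPKM or more (12943 of 13822), with Benjamini-Hochberg adjustment over all of them; this scale understates changes of low genes. Symbols matched 13783 IDs. Named genes were the 10 immediate early genes, all called genes of each list (with the most abundant up to 2 where fewer were called), the 3 nearest genes to 2 of the 10, and VAMP3. Values of MYOD1 and MEF2C were given outside this rule, and these genes were not followed through the alternatives. The members and lists were chosen with earlier results of these data known. Whole reads were recovered for 100% of the 69110 values (relative tolerance 1e-12); listed genes held 18358442 to 28401864 reads per library. Positions, GC content and 3′ untranslated regions came from canonical GENCODE 44 transcripts, promoters from RefSeq. Alternatives were other pseudocounts, filters, scalings, a variance trend, a replicate block, a fold threshold, each library left out, and, chosen after seeing the data, voom, removal of the GC trend and canonical transcript lengths for levels and shares. The fits were tested on simulated data.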

Additional observations from a re-analysis of the deposited data

How the results depend on the processing

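Of 581 values of 39 named genes under the alternatives, 466 kept their direction and their side of the threshold, 100 lost the call, 14 gained it and 1 changed sign: IER2, which ran from -0.022 to 0.35 with 1 library left out. With an absolute log2 fold change over 0.58 required as well, 2 members were called and KLF6 (-0.52) was not. The count of called genes was 3146, and 707 with that threshold. With 1 library left out it ran from 374 to 2851, and the members called from 0 to 3; leaving out a si-circVAMP3 library gave 418 or 374 calls and assumes that the lone library varies like the si-SCR libraries. Voom on whole reads called 5 members. Canonical transcript lengths put the mean share of FOS in the FOS family at 13.4% in si-SCR and 11.0% in si-circVAMP3, of FOSB at 7.87% and 8.51%, and of FOSL2 at 63.5% in si-SCR. The replicate block gave 548 calls and lost KLF6 (log2 fold change -0.56, adjusted p = 0.0555, within 0.00317 to 0.0878 over its alternatives), BRSK1, ZNF316, RAPGEF1 and 12 of the 19 other list genes called; CRTC2, IER3, MMP3, MYOG, NAB1, PLAU and SRF kept the call. Deviations of libraries with the same number correlated across genes at r = -0.10 and -0.02. With 2 si-circVAMP3 libraries these deviations mirror each other, so the check is weak, and the libraries were treated as sharing only a number. FOSL1, FOS, MAFF and IER5L had no value under the filter at a mean of 1 FPKM. Causes were not tested. FOS, FOSB and FOSL1 had 15 to 80 reads per library.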
